A study of Mus musculus with 18 samples.

Results

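The genes described here encode the cargo and machinery of cytotoxic granules: the granzymes Gzma, Gzmb, Gzmc, Gzmk and Gzmm, perforin (Prf1), serglycin (Srgn), Nkg7, cathepsin W (Ctsw) and the receptor Crtam. They were taken by symbol from a table of RNA levels, and all 10 were found among its 23234 gene symbols. All 10 also passed the filter on low values, which asked for 0.5 FPKM or more on average. FPKM is a level that corrects a fragment count for transcript length and for the number of mapped fragments.

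Cytotoxic T cells kill by releasing secretory granules towards a target cell. Perforin opens the target membrane to granzymes, serine proteases that are stored in the granule bound to the proteoglycan serglycin. The granzymes differ in what they cut: granzyme B cuts after aspartate and activates caspases, granzymes A and K cut after basic residues, and granzyme M prefers methionine or leucine. G9a, encoded by Ehmt2, is a histone methyltransferase that places repressive methyl groups on lysine 9 of histone H3.

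The study sequenced RNA from C57BL/6 mouse T cells recovered from spleen and lymph nodes after 4 weeks of expansion in lymphopenic surroundings. There were 4 libraries of G9a KO cells that carried both coreceptors, CD4+CD8+ (KO DP). There were 2 libraries of G9a KO cells with CD8 alone, CD4-CD8+ (KO SP), and 4 libraries of G9a WT CD4-CD8+ cells (WT SP). H3K9me3 ChIP was made on other cells, splenic CD8+ T cells cultured with antibodies to CD3 and CD28, in 2 Ehmt2-/- (KO) and 2 Ehmt2+/+ (WT) samples. No label says how Ehmt2 was deleted, from how many mice a library was pooled, or whether KO DP and KO SP libraries with the same title number shared a mouse. Nothing in the labels says that replicates were separate cultures, so a p-value measures the spread between these libraries.

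Cd4, Cd8a and Cd8b1 were present where the labels put them, but Cd8b1 was lower in KO DP, and 2 libraries stood apart in total signal. Cd4 averaged 110.3 ± 57.4 FPKM in KO DP, 0.207 ± 0.0211 in KO SP and 0.334 ± 0.173 in WT SP (SD; n = 4, 2 and 4). Cd8b1 averaged 590 ± 278 FPKM in KO DP, 1410 ± 94.3 in KO SP and 1344 ± 144 in WT SP. After the scaling described below it was 529 to 770 FPKM in KO DP and 1054 to 1328 in WT SP. Cd8a averaged 169 ± 79.9 FPKM in KO DP, 323 ± 23.7 in KO SP and 291 ± 41.0 in WT SP, and KO DP and WT SP overlapped. Summed over 8 T cell markers, FPKM ranged over 1286 to 4004 in KO DP, 3900 to 4333 in KO SP and 3060 to 3948 in WT SP. Ehmt2 averaged 16.1 ± 7.48 FPKM in KO DP, 13.1 ± 0.686 in KO SP and 27.3 ± 10.8 in WT SP; no call was reached, and no label says which exons were deleted. FPKM over all genes summed to 292872 in KO DP replicate 3 and to 183632 in replicate 4 of that group, against 441903 to 504013 in the other 8 libraries. Each main value below is therefore followed, where it matters, by the value after median-ratio scaling, which divides each library by its median ratio to the mean profile (0.747 and 0.469 for those 2 libraries, 1.07 to 1.23 for the others). Those 2 libraries also differed near the floor. Mean FPKM over 1096 olfactory receptor genes was 0.150 and 0.229 in KO DP replicates 3 and 4, against 0.00736 to 0.0213 in the other 8 libraries. Scaling raises the low values of those 2 libraries as well. Titles fall in 2 number ranges, 34 to 37 and 738 to 741, and KO SP exists only in the second. The files hold no read counts, so the depth is unknown and no counting interval is given.

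The promoters of the members that moved apart in the RNA are shown first: Gzmm, which was the lowest relative to WT SP, Gzmk, which had the largest positive difference, and Gzmb and Prf1, the classical killing pair. Each runs 5′ to 3′ on the gene's strand, from 250 bases before to 50 after the start, from RefSeq on GRCm38.p6. Gzmm (first of 2 annotated starts) is at chr10:79688770-79689069 on the plus strand, Gzmb at chr14:56262285-56262584 on the minus strand, Gzmk at chr13:113180916-113181215 on the minus strand and Prf1 at chr10:61297586-61297885 on the plus strand. Capitals mark the core motif of Runx factors, TGTGGT on either strand.
Gzmm: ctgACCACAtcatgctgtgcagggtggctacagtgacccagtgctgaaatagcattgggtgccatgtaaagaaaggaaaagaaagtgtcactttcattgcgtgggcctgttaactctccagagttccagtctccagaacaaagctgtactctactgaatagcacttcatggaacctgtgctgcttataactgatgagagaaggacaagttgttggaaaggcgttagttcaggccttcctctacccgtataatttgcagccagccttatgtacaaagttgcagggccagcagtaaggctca
Gzmb: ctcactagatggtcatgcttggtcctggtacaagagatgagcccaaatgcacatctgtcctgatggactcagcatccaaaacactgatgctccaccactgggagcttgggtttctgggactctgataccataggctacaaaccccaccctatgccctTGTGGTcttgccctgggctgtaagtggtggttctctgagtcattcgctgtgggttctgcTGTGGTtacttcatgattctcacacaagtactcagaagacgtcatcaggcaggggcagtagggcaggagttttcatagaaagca
Gzmk: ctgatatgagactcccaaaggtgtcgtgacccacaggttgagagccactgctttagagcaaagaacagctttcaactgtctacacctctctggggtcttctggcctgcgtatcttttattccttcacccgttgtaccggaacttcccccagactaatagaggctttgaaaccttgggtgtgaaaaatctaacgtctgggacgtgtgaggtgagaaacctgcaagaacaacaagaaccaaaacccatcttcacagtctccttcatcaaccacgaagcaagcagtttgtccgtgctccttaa
Prf1: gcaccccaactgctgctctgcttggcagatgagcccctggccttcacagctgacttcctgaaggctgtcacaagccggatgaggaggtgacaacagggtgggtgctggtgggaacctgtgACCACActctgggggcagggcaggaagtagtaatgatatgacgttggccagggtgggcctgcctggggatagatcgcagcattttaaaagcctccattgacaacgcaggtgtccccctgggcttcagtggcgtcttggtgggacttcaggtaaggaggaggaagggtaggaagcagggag
The Gzmb promoter held 2 Runx cores, Prf1 and this Gzmm promoter 1 each, and Gzmk 0. Of all 32851 promoters of this length in the RefSeq table, 16.8% held at least 1. The short motif of T-box factors, TCACAC on either strand, was found 2 times in Gzmk, 1 time in Gzmb and 0 times in Prf1 and in this Gzmm promoter, and 14.5% of all promoters held it. The AP-1 motif TGANTCA was present 1 time in Gzmb and in none of the other 3, against 7.81% of all promoters. The second annotated Gzmm start, not shown, held 0 Runx cores, 2 T-box motifs and 0 AP-1 motifs, the same counts as Gzmk. Promoters were matched for 8 of the 10 members, and a match is a string of letters, not a bound site.

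Gzmm, the granzyme that prefers methionine or leucine, fell most in KO DP. Its levels were 3.37, 1.66, 3.16 and 3.68 FPKM in KO DP, 48.6 and 47.8 FPKM in KO SP, and 38.8, 32.8, 31.1 and 25.7 FPKM in WT SP. Every KO DP library lay far below every single-positive library of either genotype, and the 2 KO SP libraries lay above all 4 of WT SP. The mean was 2.97 ± 0.897 FPKM in KO DP, 48.2 ± 0.527 in KO SP and 32.1 ± 5.40 in WT SP (SD; n = 4, 2 and 4). KO DP minus WT SP was -3.08 ± 0.26 on the log2(FPKM + 1) scale (SE; limma, Benjamini-Hochberg adjusted p = 3.77e-05), and the ratio of means was 10.8-fold lower in KO DP. After median-ratio scaling the difference was -2.70 (adjusted p = 0.000955). KO DP minus KO SP was -3.67 ± 0.32 (adjusted p = 0.000171; limma). The call against WT SP held when each of the 10 libraries was left out in turn, with differences between -3.18 and -2.90. It was lost with the 4 libraries of titles 34 to 37 alone, where the difference was -3.43 (adjusted p = 0.0609, limma). With titles 738 to 741 alone the difference was -2.73. After scaling it was -3.46 with titles 34 to 37 alone and -1.95 with titles 738 to 741 alone. The change of the scaled difference between title ranges was 1.51 (adjusted p = 0.263, limma interaction term).

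**Figure D1:**
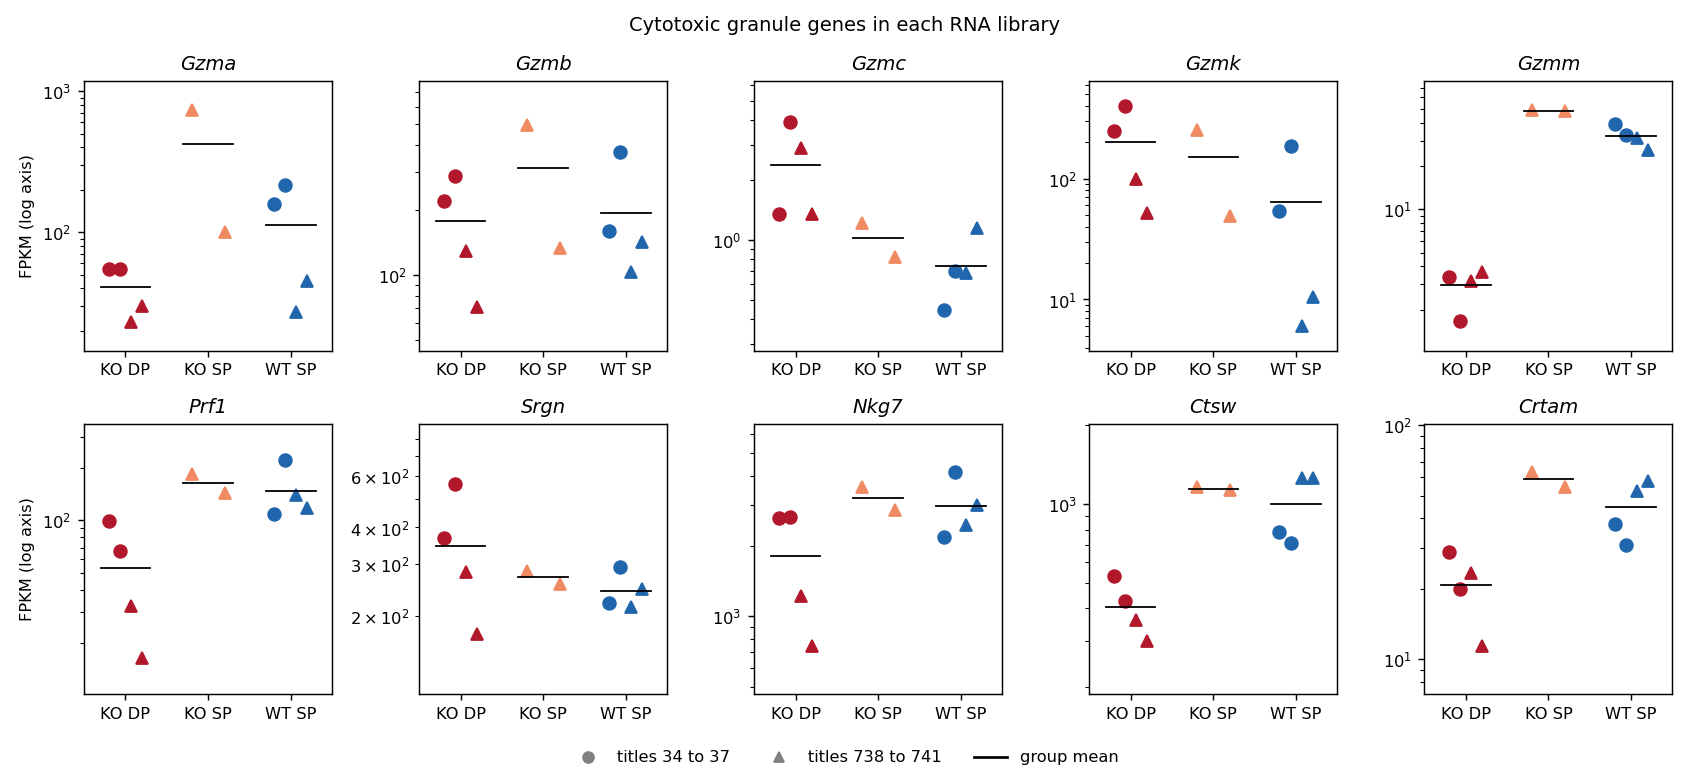
FPKM of each granule gene in each RNA library (log axis; a different axis for each gene), by group; circles are titles 34 to 37, triangles titles 738 to 741, and lines are group means. Gzmm lies at 1.66 to 3.68 FPKM in KO DP, 47.8 to 48.6 in KO SP and 25.7 to 38.8 in WT SP, while Gzmb overlaps across all groups.

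No other granzyme was called as deposited. Gzmb, the main caspase-activating granzyme, had 219, 288, 129.6 and 71.2 FPKM in KO DP, 494 and 132 FPKM in KO SP, and 159.8, 369, 103 and 141 FPKM in WT SP. All 3 groups overlapped, and KO DP minus WT SP was -0.14 ± 0.55 (adjusted p = 0.868, limma), with the sign turned to 0.27 after scaling. An interval of this width does not show that the levels were alike.

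Gzmk, a granzyme of memory-type CD8 T cells, had 246, 401, 100.2 and 51.5 FPKM in KO DP, 251 and 49.3 FPKM in KO SP, and 54.2, 186, 6.03 and 10.4 FPKM in WT SP. The groups overlapped through WT SP replicate 2, while within each title range both KO DP libraries were above both WT SP libraries. The log2 difference, KO DP minus WT SP, was 2.33 ± 0.99 (adjusted p = 0.156; 2.72 and 0.0829 after scaling, limma). It reached adjusted p = 0.0220 with the description number as a replicate block, adjusted p = 0.0144 with the title range as a block, and adjusted p = 0.0401 without WT SP replicate 2. The difference was 1.63 within titles 34 to 37 and 3.02 within titles 738 to 741.

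Gzma, the neighbour of Gzmk on chromosome 13, had a difference of the opposite sign, which was not called. It had 54.7, 54.5, 23.1 and 29.9 FPKM in KO DP, 738 and 99.9 FPKM in KO SP, and 158, 217, 27.0 and 45.2 FPKM in WT SP. KO DP and WT SP overlapped, and KO SP replicate 1 was the highest of all libraries. KO DP minus WT SP was -1.07 ± 0.72 (adjusted p = 0.331), and KO DP minus KO SP was -2.81 ± 0.88 (adjusted p = 0.109, limma).

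Gzmc, a paralogue of Gzmb in the chromosome 14 cluster, was low everywhere. It had 1.35, 3.93, 2.89 and 1.35 FPKM in KO DP, 1.22 and 0.820 FPKM in KO SP, and 0.442, 0.700, 0.680 and 1.14 FPKM in WT SP. Every KO DP library was above every WT SP library. Set against WT SP, KO DP differed by 0.90 ± 0.28 (adjusted p = 0.0731; 1.14 and 0.0165 after scaling, limma), which understates the change of so low a gene because of the pseudocount. As deposited, the call was reached without KO DP replicate 1 (adjusted p = 0.0437) or without KO DP replicate 4 (adjusted p = 0.0487), and with the title range as a block (adjusted p = 0.0379, limma). After scaling its KO DP levels were 1.15, 3.35, 3.86 and 2.88 FPKM. KO DP replicates 3 and 4, which scaling raised, had the highest means of olfactory receptor genes. Whether such background adds to Gzmc was not tested. Reads shared with near-identical paralogues make its level uncertain. The other members of that cluster, Gzmd, Gzme, Gzmf, Gzmg and Gzmn, all 5 failed the filter, and the highest value of any of them was 0.464 FPKM, for Gzmd in KO DP replicate 4.

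Among the genes of the pore and the granule matrix, perforin had a negative and serglycin a positive difference in KO DP against WT SP, and neither was called as deposited. Prf1 had 99.4, 66.7, 32.4 and 16.3 FPKM in KO DP, 185 and 144 FPKM in KO SP, and 109, 222, 139.9 and 119 FPKM in WT SP. Every KO DP library was below every single-positive library. KO DP minus WT SP was -1.68 ± 0.48, which missed the threshold (adjusted p = 0.0553, limma) and passed it after scaling (-1.28, adjusted p = 0.0157) and with the description number as a replicate block (adjusted p = 0.0209) or the title range as a block (adjusted p = 0.0122). It also passed without KO DP replicate 1 (-2.07, adjusted p = 0.0199). The 2 KO DP libraries with low summed FPKM had the lowest Prf1, and without both the difference was -0.79 (adjusted p = 0.174).

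Srgn had 369, 562, 283 and 174 FPKM in KO DP, 285 and 258 FPKM in KO SP, and 222, 292, 214 and 247 FPKM in WT SP. The groups overlapped as deposited, with the highest and the lowest library both in KO DP. On the log2 scale KO DP minus WT SP was 0.39 ± 0.35 (adjusted p = 0.444). After scaling no library overlapped, and the difference was 0.80 (adjusted p = 0.00762, limma).

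Ctsw, a cysteine protease of CD8 T and NK cells, was the only other member called lower as deposited. It had 529, 425, 360.4 and 301 FPKM in KO DP, 1163 and 1132 FPKM in KO SP, and 781, 713, 1264 and 1264 FPKM in WT SP. As deposited, KO DP lay below every single-positive library, and the WT SP libraries split by title range; after scaling KO DP and WT SP overlapped. KO DP minus WT SP was -1.29 ± 0.32 (adjusted p = 0.0304; -0.89 and 0.0294 after scaling, limma). The call was lost when KO DP replicate 3, either KO SP replicate, or WT SP replicate 1, 3 or 4 was left out, with adjusted p over the 10 omissions between 0.0264 and 0.119. It was also lost with no filter (adjusted p = 0.0946), with only KO DP and WT SP fitted (adjusted p = 0.0605) and without KO DP replicates 3 and 4 together (-1.03, adjusted p = 0.0883). Within titles 34 to 37 the difference was -0.65, and within titles 738 to 741 it was -1.94.

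Crtam, a surface receptor of activated CD8 T cells, had 28.7, 20.0, 23.4 and 11.4 FPKM in KO DP, 63.1 and 54.6 FPKM in KO SP, and 38.0, 30.9, 52.3 and 57.6 FPKM in WT SP. Every KO DP library was below every single-positive library as deposited. Relative to WT SP, the log2 level in KO DP differed by -1.09 ± 0.32 (adjusted p = 0.0589; -0.70 and 0.0556 after scaling, limma). The call was reached without KO DP replicate 1 (adjusted p = 0.0368) or without WT SP replicate 2 (adjusted p = 0.0421), and with the title range as a block (adjusted p = 0.0350, limma). The difference was -0.50 within titles 34 to 37 and -1.69 within titles 738 to 741 (adjusted p = 0.0138, limma).

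Nkg7, a granule membrane protein needed for degranulation, was the most abundant member per length. It had 2625, 2657, 1222 and 744 FPKM in KO DP, 3573 and 2852 FPKM in KO SP, and 2193, 4145, 2468 and 2996 FPKM in WT SP. KO DP and WT SP overlapped through the 2 KO DP libraries of titles 34 and 35. Its log2 difference, KO DP minus WT SP, was -0.85 ± 0.45 (adjusted p = 0.233; -0.44 and 0.221 after scaling, limma). It was -0.19 within titles 34 to 37, -1.51 within titles 738 to 741 (adjusted p = 0.0274, limma), and -0.12 without KO DP replicates 3 and 4.

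Counted together, 2 of the 10 members were called in KO DP against WT SP, both lower, where 7.89% of 11162 tested genes were called, 2.86% higher and 5.03% lower. After scaling 5 members were called, Gzmm, Prf1 and Ctsw lower and Gzmc and Srgn higher, against 18.0% of all genes, 9.20% higher and 8.82% lower. With the description number as a replicate block, 4 members and 1435 genes were called, and with the title range as a block 6 members and 2123 genes. Ranges did not overlap for 4 members that were lower and 1 that was higher, against 13.1% and 3.40% of all genes; after scaling they did not overlap for 2 lower and 2 higher members, against 10.2% and 9.43% of all genes. The median difference was -0.96 over the members and -0.38 over all genes, or -0.56 and -0.04 after scaling. The members spread from -3.08 to 2.33. None of the 10 had a called interaction between this difference and the title range, for which 52 genes were called at adjusted p and 4784 had an unadjusted p under 0.05 (limma); the lowest adjusted p among the members was 0.0724, for Ctsw.

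**Figure D2:**
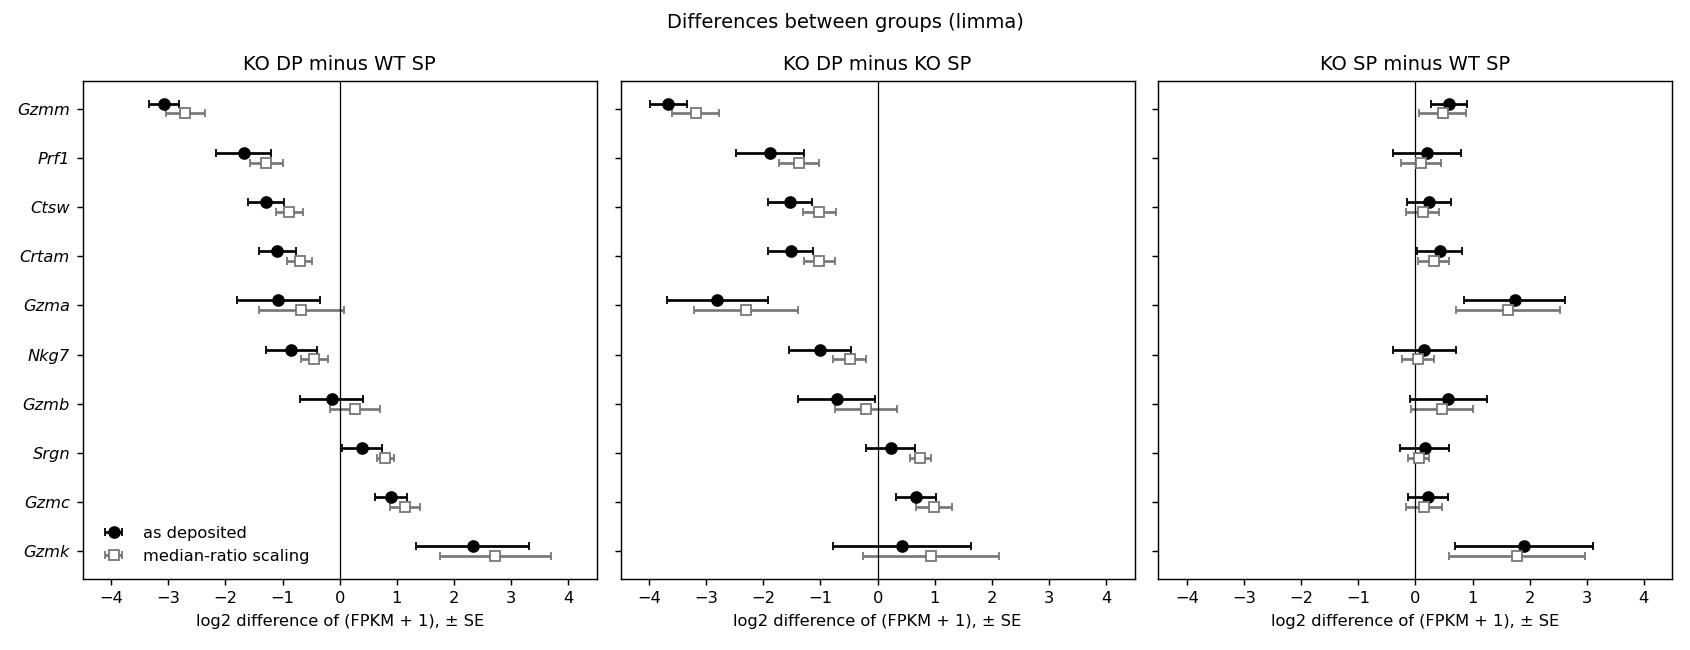
Difference of each granule gene in log2(FPKM + 1) with its SE (limma), KO DP minus WT SP, KO DP minus KO SP and KO SP minus WT SP; filled circles are values as deposited, open squares values after median-ratio scaling. In KO DP minus WT SP the genes run from Gzmm at -3.08 to Gzmk at 2.33, and Gzmb is the one whose sign turns with the scaling.

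The KO single-positive cells, which share the deletion with KO DP, had Gzmm above every WT SP library. Against KO SP, Gzmm was the only member called in KO DP, where 2.07% of genes were called and 1.65% were lower. After scaling Srgn was also called, at 0.75 (adjusted p = 0.0465, limma), where 5.91% of genes were called, 2.44% higher and 3.48% lower. Prf1 (-1.88 ± 0.59, adjusted p = 0.110), Ctsw (-1.54 ± 0.39, adjusted p = 0.0643) and Crtam (-1.52 ± 0.39, adjusted p = 0.0678) missed the threshold. Without KO DP replicate 1, Prf1 (adjusted p = 0.0485) and Crtam (adjusted p = 0.0471) were called, and Crtam also without KO DP replicate 4 (adjusted p = 0.0490, limma). Ranges did not overlap for 6 members that were lower in KO DP and 1 that was higher, where 35.5% and 4.44% of all genes did so. With the title range as a block 3 members were called, where 468 of 11162 genes were called. All 3 were lower: Gzmm, Prf1 (-2.39, adjusted p = 0.0269) and Gzma (-3.66, adjusted p = 0.0185, limma). With the title number as a block 7 were called, where 4503 of 11162 genes were called. All 7 were lower: Gzma, Gzmb, Gzmm, Prf1, Nkg7, Ctsw and Crtam. Both of these fits called more genes of the whole table than the main fit, the title number block by far. That block left few libraries to estimate the spread. The title number block sets only the KO DP libraries of titles 738 and 739, with low summed FPKM, against KO SP. It was not run after scaling, and no label says what libraries of equal title number share. The comparison with KO SP shares its KO DP libraries with the one against WT SP.

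No member was called between KO SP and WT SP, where limma called 13 genes (0.116%) and 384 had an unadjusted p under 0.05. After scaling 20 genes (0.179%) and again no member were called. All 10 differences were positive as deposited and after scaling. Those of Gzmb, Prf1, Srgn and Nkg7 turned with the replicate block by description number, and that of Ctsw within titles 738 to 741. This block sets KO SP replicates 1 and 2, of titles 738 and 739, with WT SP replicates 1 and 2, of titles 36 and 37. Deviations of those pairs did not go together (correlations of -0.034 and -0.110). The 10 differences ran from 0.16 for Nkg7 to 1.90 for Gzmk, with a median of 0.33 against 0.11 over all genes. Gzmm was 0.59 ± 0.32 higher (adjusted p = 0.938) and was the only member whose ranges did not overlap, as held for 21.1% of all genes in that direction. Gzma was 1.74 ± 0.88 higher (adjusted p = 0.938). For Gzma, Gzmb and Gzmk, KO SP replicate 1 was 7.39, 3.73 and 5.09 times KO SP replicate 2, so the mean of these 2 libraries is poorly fixed.

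Within a library the granzymes changed place. Of the summed FPKM of the 5 granzymes, Gzmk took 46.9, 53.6, 38.7 and 32.7% in KO DP, 16.4 and 14.9% in KO SP, against 13.2, 23.1, 3.60 and 4.65% in WT SP. Gzmm took 0.222 to 2.34% in KO DP, 3.17 to 14.5% in KO SP and 4.08 to 18.5% in WT SP. Gzma took 11.4% on average in KO DP, 39.2% in KO SP and 25.4% in WT SP. Gzmb took 43.9% on average in KO DP, 36.2% in KO SP and 52.3% in WT SP. Gzmk exceeded Gzma in each KO DP library, by 4.49, 7.36, 4.34 and 1.72 times, and was below it in every single-positive library, with ratios of 0.340 and 0.494 in KO SP and 0.223 to 0.856 in WT SP.

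**Figure D3:**
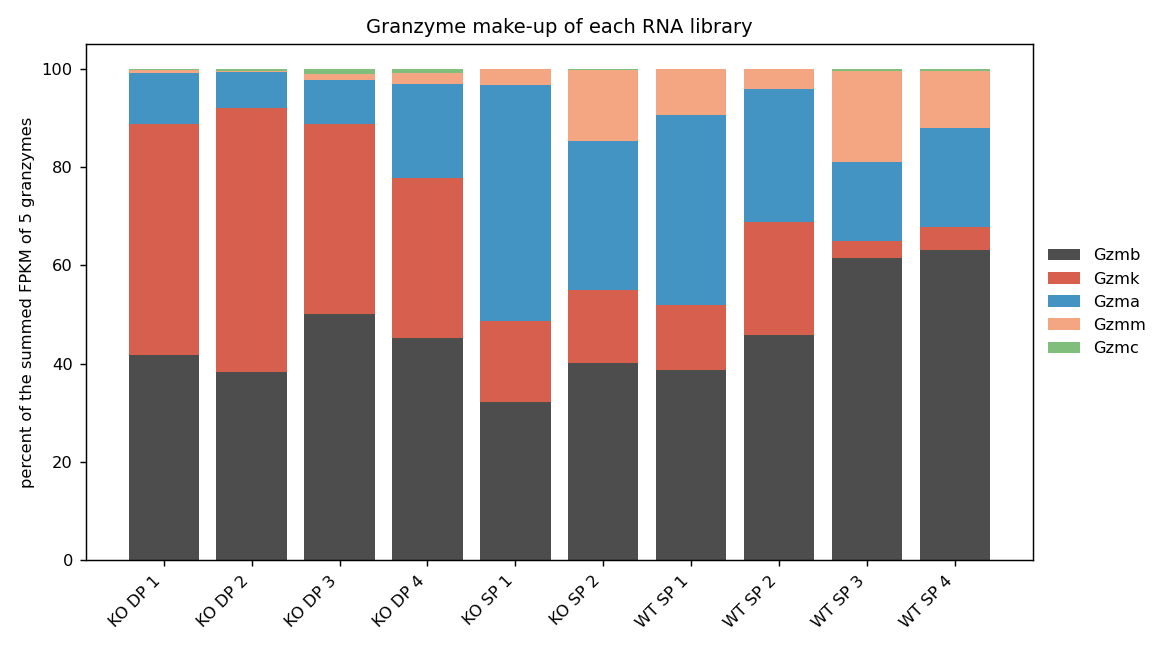
Share of each granzyme in the summed FPKM of Gzma, Gzmb, Gzmc, Gzmk and Gzmm (percent), 1 bar per RNA library. Gzmk takes 32.7 to 53.6% in KO DP, 14.9 to 16.4% in KO SP and 3.60 to 23.1% in WT SP, and Gzmm is 2.34% or less in KO DP.

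To compare members with less dependence on the scaling of whole libraries, 6 pairs were set against each other inside each library. They were chosen by role or genome neighbourhood. The pseudocount leaves some dependence on scaling at low levels, as for Gzmm in KO DP and for Gzmc. Gzmm minus Gzmb averaged -5.33 ± 1.18 on the log2 scale in KO DP against -2.39 ± 0.76 in WT SP (SD, n = 4 each), a difference of -2.94. Gzma minus Gzmk averaged -1.96 ± 0.87 in KO DP against 1.44 ± 0.84 in WT SP, a difference of -3.40. Prf1 minus Gzmb averaged -1.81 ± 0.46 in KO DP against -0.27 ± 0.51 in WT SP, a difference of -1.54. These 3 pairs, and Nkg7 minus Prf1 with a difference of 0.83, had ranges apart and an exact two-sided permutation p of 0.0286, the smallest that 4 against 4 can give (0.0429 after Benjamini-Hochberg adjustment over 6 pairs). Gzmb minus Gzmc (-1.04) and Prf1 minus Gzmm (1.40) overlapped (exact permutation p = 0.114 each, also after adjustment). The members were chosen with earlier results of these data known, so the p-values of these pairs are not independent support. Within these libraries, Prf1 was lower relative to Gzmb and to Nkg7, and Gzma lower relative to Gzmk, in KO DP than in WT SP. This test lets all 8 libraries change places. With exchange kept inside the 4 pairs of equal description number the smallest two-sided p would be 0.125, and inside the title ranges 0.0556, so no pair could then pass.

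**Figure D4:**
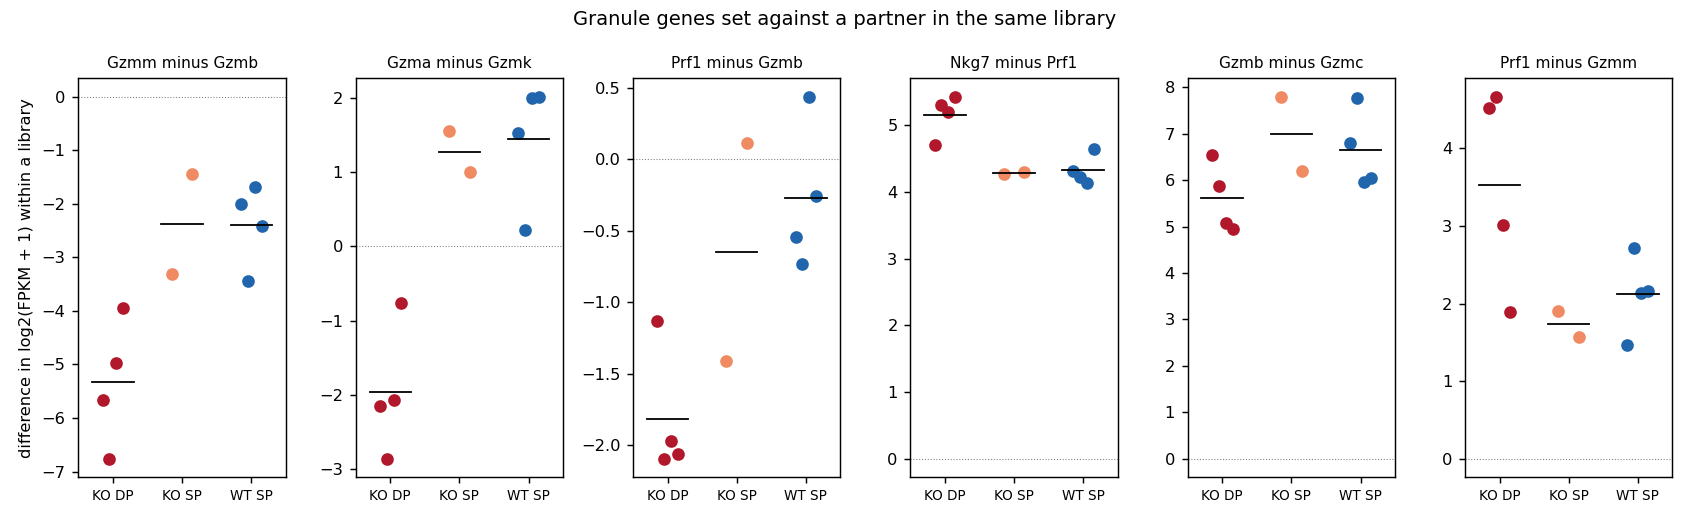
Difference in log2(FPKM + 1) between 2 granule genes in the same library; points are libraries, lines group means, and the dotted line is 0. For Gzma minus Gzmk the 4 KO DP libraries lie at -2.86 to -0.76, and the 4 WT SP libraries at 0.22 to 2.02.

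Likeness between genes was measured as the root-mean-square distance between log2(FPKM + 1) profiles over the 10 libraries, each centred on its mean. Among the members the closest were Ctsw and Crtam at 0.20, and the farthest Gzmm and Gzmk at 2.91. The nearest member to Prf1 was Nkg7 at 0.46, and the nearest to Gzmm was Ctsw, at 1.05. Over all tested genes, Gzmm was nearest to Cnr2 (0.50), the cannabinoid receptor of immune cells, then to Dapl1 (0.55) and Gm19705 (0.55). Among the 3 genes nearest to Gzmk was Klrg1 (0.68), a lectin-like receptor of effector cells. Gzma was nearest to Klre1 (0.41), an NK and T cell lectin-like receptor, and Itgax (0.74), the integrin CD11c. Gzmb was nearest to Bspry (0.35) and to Serpinb9 (0.39), which encodes an inhibitor of granzyme B. Smap2 (0.33) was among the 3 nearest to Prf1. These distances describe 10 libraries that differ in title range and total signal.

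The genes that mature or restrain granzymes mostly did not pass the test in KO DP against WT SP. Of 11 listed, 10 were tested, 1 was called higher, 0 lower and 9 were not called as deposited, with a median of -0.15, where 2.86% of all genes were called higher and 5.03% lower. After scaling 1 was called higher and 1 lower, with a median of 0.23, where 9.20% of all genes were called higher and 8.82% lower. The same shares of all genes stand beside the counts of the next 3 lists. Serpina3g, a serpin of activated T cells with close paralogues, averaged 157 ± 87.6 FPKM in KO DP, against 50.8 ± 10.1 in WT SP, a log2 difference of 1.44 ± 0.39 (adjusted p = 0.0456, limma). Of the 10 leave-one-out fits, its call held in 2, those without KO DP replicate 4 or WT SP replicate 2, and adjusted p reached 0.142 without WT SP replicate 3. Ctsc, which activates pro-granzymes, was at -0.72 (adjusted p = 0.249), and its inhibitor Cst7 at -1.01 (adjusted p = 0.108, limma; -0.61 and 0.0144 after scaling).

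Of 22 genes of granule transport and release, 21 were tested, 1 was called higher, 2 lower and 18 were not called as deposited; after scaling 2 were called higher, Stx11 and Vamp7, and 2 lower, Lamp1 and Lyst. Lamp1, the lysosomal membrane protein exposed on degranulation, averaged 38.6 ± 17.4 FPKM in KO DP, against 100.8 ± 25.8 in WT SP (-1.45 ± 0.36, adjusted p = 0.0316, limma). Lyst, a regulator of lysosome size, averaged 2.28 ± 1.55 FPKM in KO DP, against 8.78 ± 4.91 in WT SP (-1.56 ± 0.43, adjusted p = 0.0488, limma). Stx11, a syntaxin of granule fusion, averaged 37.7 ± 13.8 FPKM in KO DP, against 13.4 ± 10.1 in WT SP (1.56 ± 0.43, adjusted p = 0.0485, limma). Of the 10 leave-one-out fits, the Lamp1 call held in 4, those without KO DP replicate 1, 2 or 4 or WT SP replicate 2 (highest adjusted p 0.114). The Lyst call held in 2, without KO DP replicate 1 or 2 (highest adjusted p 0.164), and the Stx11 call in 2, without KO DP replicate 4 or WT SP replicate 2 (highest adjusted p 0.163). Rab27a (-0.07) and Unc13d (-0.48), which dock and prime granules, were not called.

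Killing routes outside the granule gave 0 calls among 9 genes as deposited. Tnf averaged 11.3 ± 3.69 FPKM in KO DP, against 5.71 ± 1.43 in WT SP (0.84 ± 0.30, adjusted p = 0.0984, limma), and Fasl 49.0 ± 27.7 FPKM in KO DP against 42.1 ± 35.2 in WT SP (0.34 ± 0.52). After scaling Tnf (1.21) and Lta (1.21) were called higher. Among 10 transcription factors that regulate granule genes, 2 were called lower and 8 were not called as deposited. After scaling 2 were called higher, Id2 (1.37, adjusted p = 0.00907) and Bhlhe40 (2.32, adjusted p = 0.0284), and 3 lower, Bach2, Tcf7 and Stat4 (-0.45, adjusted p = 0.0198, limma). Bach2, a repressor of effector genes, had 1.53, 0.788, 0.990 and 0.996 FPKM in KO DP, 3.18 and 4.99 FPKM in KO SP, and 5.70, 3.84, 7.45 and 5.71 FPKM in WT SP. KO DP overlapped neither single-positive group, and KO DP minus WT SP was -1.67 ± 0.25 (adjusted p = 0.00267, limma), called in 10 of 10 leave-one-out fits. Tcf7, a factor of naive and memory T cells, averaged 122 ± 58.7 FPKM in KO DP, against 314 ± 93.1 in WT SP (-1.46 ± 0.40, adjusted p = 0.0474, limma), called in 3 of 10 such fits, those without KO DP replicate 1 or 2 or WT SP replicate 2 (highest adjusted p 0.152). Tbx21 (-0.70), Eomes (-1.04) and Runx3 (-0.63), activators of Prf1 and granzyme genes, were not called. In KO DP minus KO SP and in KO SP minus WT SP no gene of these lists was called as deposited. After scaling, Lamp1 (-1.33, adjusted p = 0.0117), Tnf (1.28, adjusted p = 0.0222), Cst7 (-0.75, adjusted p = 0.0301) and Stat4 (-0.53, adjusted p = 0.0471) were called in KO DP minus KO SP (limma), and none in KO SP minus WT SP.

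Markers of other cells were counted because NK cells also express most members. The 8 NK cell markers summed to 2.64 to 55.1 FPKM in KO DP, 15.1 to 15.1 in KO SP and 8.82 to 51.1 in WT SP. By title range the sums were 29.7 to 55.1 FPKM in titles 34 to 37 and 2.64 to 17.0 in titles 738 to 741. As deposited, Gzma and Gzmk of KO DP and of WT SP were also higher in titles 34 to 37. After scaling, Gzma of KO DP was not split (46.6 and 46.4 against 30.9 and 63.7). KO SP replicate 1, in the second range, had the highest Gzma of all libraries (738 FPKM) at an NK marker sum of 15.1 FPKM. Tyrobp and Fcer1g, which myeloid cells express too, made up most of the NK marker sums in titles 34 to 37. Of the NK receptors, Ncr1 was at 0.406 to 0.989 FPKM in titles 34 to 37 and 0 to 0.309 in titles 738 to 741, while Klrb1c overlapped between the title ranges (0.365 to 1.56 and 0.147 to 3.10 FPKM). Macrophage markers divided the same way (6 genes, 49.1 to 143 FPKM in titles 34 to 37 and 12.0 to 26.2 in titles 738 to 741), as did red cell markers (4 genes, 391 to 949 and 0.737 to 48.2 FPKM) and neutrophil markers (5 genes, 1.42 to 5.80 and 0 to 1.28 FPKM). The 3 CD4 T cell markers, Cd4, Zbtb7b and Cd40lg, summed to 67.9 to 220 FPKM in KO DP, 3.86 to 4.59 in KO SP and 1.26 to 1.64 in WT SP. Cd40lg was at 17.3 to 36.7 FPKM in KO DP, 3.47 and 4.19 in KO SP and 0.178 to 1.20 in WT SP. Zbtb7b was at 1.16 to 5.58 FPKM in KO DP and at most 0.853 in the single-positive libraries. The 3 regulatory T cell markers summed to 7.18 to 38.9 FPKM in KO DP, 1.17 to 2.11 in KO SP and 0.594 to 3.11 in WT SP. Foxp3 had 28.3, 19.8, 3.52 and 4.94 FPKM in KO DP and was listed at 0 in the 6 other libraries. Mast cell and basophil markers, 6 genes, summed to 3.51 to 6.82 FPKM in KO DP, 0.826 to 0.870 in KO SP and 0.126 to 0.805 in WT SP. Most of the KO DP sum was Kit (6.65, 6.46, 2.72 and 2.11 FPKM), a receptor that progenitors also carry, while Mcpt8 and Mcpt4 were listed at 0 in all libraries except KO DP replicate 4 (0.230 and 0.0618 FPKM). That library had the highest mean of olfactory receptor genes. Cpa3, a mast cell protease, was at 0.0989 to 0.350 FPKM in KO DP and 0.377 to 0.400 in KO SP. The part of such cells in the granule results was not tested. In bulk RNA, fewer cells that express a gene and less RNA per cell cannot be told apart.

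H3K9me3, the trimethyl mark of silent chromatin, was read from the authors' peak lists in the cultured cells, on mm9. Peaks assigned by the authors' annotation to a member and within 50 kb of its start numbered 9 and 7 in the KO lists, and 12 and 7 in the WT lists, out of 111149 and 154997 peaks in KO and 85960 and 23304 in WT. They formed 17 sites at 6 members, and Srgn, Nkg7, Ctsw and Crtam had none within this distance. With 2 lists a genotype no test was made, and scores from lists of such different lengths are not comparable between lists.

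Only 3 sites were found in all 4 lists. At Gzmm the site was in intron 1, chr10:79154523-79155959, between 3.19 and 3.57 kb downstream of the start, over LINE and SINE sequence of the L1MB5 and B3A types, with peak scores of 30.1 and 29.8 in KO and 31.9 and 42.6 in WT. These scores stood at the 95.9 and 94.5 percentiles of the KO lists and the 88.1 and 90.1 percentiles of the WT lists. At Gzmk it was an endogenous retroviral element of the RLTR13D2 type, chr13:113978104-113979895, between 7.66 and 7.98 kb upstream, with scores of 38.4 and 24.2 in KO and 57.4 and 50.5 in WT. The third was an RLTR19A element about 35 kb downstream of the Prf1 start, within a neighbouring gene, at chr10:60794876-60796259.

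Sites seen in both lists of 1 genotype were few. In both KO lists only were an intron 2 site of Prf1, 3.44 to 3.47 kb from its start, with scores of 8.25 and 7.46, and a site 11.9 kb downstream of the Gzma start, with scores of 8.74 and 11.7. In their lists these scores stood at the 43.8 and 31.3 percentiles for Prf1 and the 49.4 and 66.6 percentiles for Gzma. Median scores were 9.22 and 9.32 in the KO lists and 11.9 and 17.4 in the WT lists. Whether list length set the absence from the WT lists was not tested. In both WT lists only were a site 5.28 to 5.33 kb upstream of Gzmk and a site 28.2 to 28.6 kb upstream of Gzmb. A site 2.98 to 3.09 kb upstream of Gzma was in KO list 1 and in both WT lists.

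**Figure D5:**
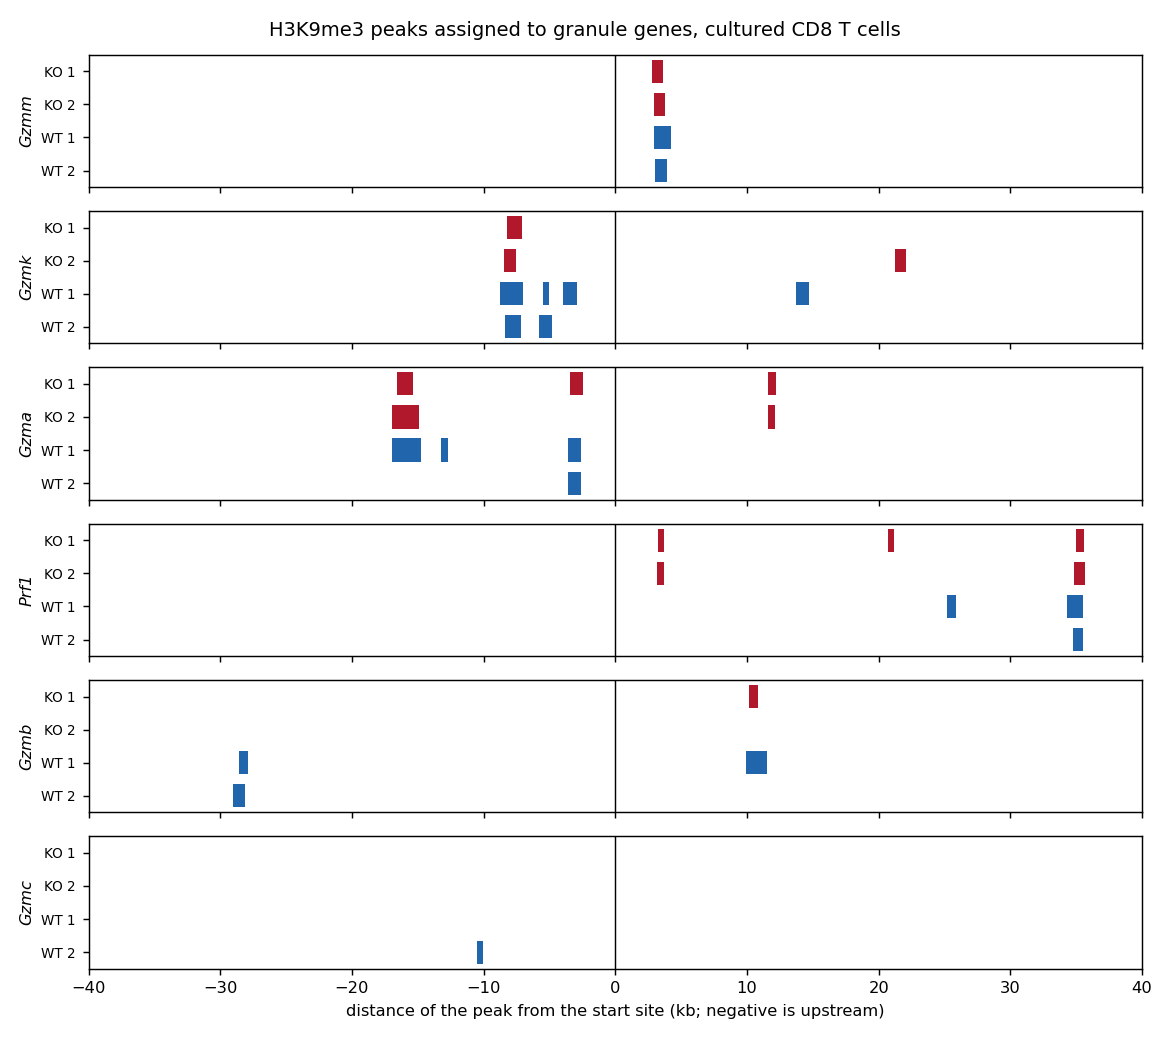
H3K9me3 peaks within 50 kb of the start of a granule gene in each of the 4 peak lists (KO red, WT blue); the horizontal axis is the distance of the peak from the start in kb, and a bar's width is the peak's length. The Gzmm intron site, 3.19 to 3.57 kb downstream, is present in both KO and both WT lists.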

How the data were processed

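RNA was amplified from at most 5 ng per sample with the SmartSeq v.4 kit and made into Nextera libraries, per the labels' protocols, so reads carry no strand or molecular identifiers. The authors deposited 1 table of FPKM, for which TopHat, Cufflinks and the mm9 build are named, per the submitters' processing notes. Its 23700 lines hold 23234 symbols; repeat lines of 250 symbols were summed, none of them a member. For the H3K9me3 peak lists, 1 per immunoprecipitated sample, the submitters' processing notes name Bowtie, HOMER and mm9; each peak carries the score that the authors deposited.

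The 11162 genes that averaged 0.5 FPKM or more in the 10 libraries were fitted as log2(FPKM + 1) from the deposited FPKM by limma 3.58.1 in R 4.3.3, with a mean-variance trend and group as the only term, and p-values were adjusted over all genes tested (threshold 0.05). Fold changes on this scale understate those of low genes. The fit was checked on simulated data with independent spread for each gene and library. Those data had no shift of whole libraries and no title ranges, so the check does not cover these features. FPKM is not a count, so no count test was used. Alternatives were median-ratio scaling, a pseudocount of 0.1, other filters, blocks, title ranges and each library left out.

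Libraries of KO DP and WT SP with the same description number had correlated deviations (0.119, 0.293, 0.111 and 0.103). These numbers were used as a block in alternative fits only, and no label says what they share. Libraries of unequal number within a title range also correlated: KO DP 4 and WT SP 3 at 0.243, KO DP 3 and WT SP 4 at 0.201, KO DP 2 and WT SP 1 at 0.147, KO DP 1 and WT SP 2 at 0.068. Number and title range therefore cannot be told apart. The title numbers 738 and 739 occur in both KO DP and KO SP (0.143 and 0.0908). Description numbers 1 and 2 of KO SP belong to these titles, so that block sets KO SP with libraries of titles 34 to 37.

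The members and lists were chosen with earlier results of these data known. All members are named, of each list up to 4 called genes by smallest p plus genes named for their role, and for up to 5 members the 3 nearest genes or fewer. Promoters are RefSeq's on GRCm38.p6, a different build from the mm9 files. ChIP inputs were not used here. Versions: Python 3.11.15, pandas 2.3.3, numpy 2.4.6, scipy 1.17.1, matplotlib 3.10.9.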

Additional observations from a re-analysis of the deposited data

How the results depend on the processing

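Gzmm stayed called lower in KO DP against KO SP in all 22 alternatives run, and against WT SP in 22 of 24, the exceptions being titles 34 to 37 alone with and without scaling. Counts of calls moved more. For KO DP minus WT SP, 881 genes and 2 members were called, against 2011 and 5 with median-ratio scaling, 556 and 1 with these groups alone, 2123 and 6 with the title range as a block, 1435 and 4 with the replicate block (description number), 2231 and 7 with that block and scaling, 73 and 0 with titles 34 to 37 (59 and 0 scaled), and 6015 and 6 with titles 738 to 741 (3182 and 7 scaled); with no filter 1 member was called. Leaving out single libraries gave 308 to 1211 genes and 1 to 5 members. For KO SP minus WT SP, 13 genes were called, against 20 with scaling, 8 at a mean of at least 2 FPKM, 27 with these groups alone, 37 with the title range block, 346 with the replicate block (1406 with scaling), 63 with titles 738 to 741 (56 scaled), and 9 to 16 without single libraries. For KO DP minus KO SP, 231 genes and 1 member were called, against 660 and 2 with scaling, 113 genes with no filter, 86 genes with these groups alone, 2 members with no mean-variance trend, 468 and 3 with the title range block, 583 genes with the replicate block by description number (2636 and 4 with scaling), 4503 and 7 with the replicate block by title number, 5964 and 6 with titles 738 to 741 (1775 and 6 scaled), and 21 to 401 genes and 1 to 3 members without single libraries. In both comparisons with KO SP, the block by description number joins libraries of different title ranges. The causes were not tested.

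Signs turned for values that had missed the threshold. In KO DP minus WT SP, Gzma became 0.50 with titles 738 to 741 scaled, and Gzmb (-0.14) became 0.27 with scaling, with or without the replicate block, 0.55 without KO DP replicates 3 and 4, 0.048 with titles 34 to 37, 0.59 with titles 738 to 741 scaled, and -0.43 to 0.23 without single libraries, while Srgn became -0.052 with titles 738 to 741. In KO SP minus WT SP the replicate block gave -0.017 for Gzmb, and gave -0.31 (-0.19 scaled) for Prf1, -0.13 (-0.0042 scaled) for Srgn and -0.25 (-0.12 scaled) for Nkg7. There, titles 738 to 741 gave -0.14 (-0.23 scaled) for Ctsw, and leaving out single libraries gave -0.37 to 1.52 for Gzmb and -0.0054 to 0.33 for Nkg7. In KO DP minus KO SP, Gzmb became 0.16 with the replicate block and scaling and ran from -1.66 to 0.23 without single libraries. Gzmk became -0.98 with the title range block and -0.63 with the replicate block by title number or titles 738 to 741 alone, and ran from -0.73 to 1.59 without single libraries. Srgn became -0.068 with the title range block and -0.29 with the replicate block by title number or titles 738 to 741, and ran from -0.045 to 0.52.

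With a library left out, the exact permutation test of 3 against 4 cannot pass the threshold after adjustment. The pair differences then ran from -3.40 to -2.46 for Gzmm minus Gzmb, -3.81 to -3.10 for Gzma minus Gzmk, -1.77 to -1.30 for Prf1 minus Gzmb and 0.74 to 0.98 for Nkg7 minus Prf1. H3K9me3 peaks within 10 kb numbered 4 and 3 in KO and 5 and 4 in WT. Libraries of unknown depth limit what can be said of Gzmc and of genes near 0 FPKM.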
